A study of Mus musculus with 3 samples.

Results

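The cells described here are graft TEa cells that carried at least 3 UMIs of Ifng, the gene of the cytokine interferon gamma, on day 7 after the heart was transplanted. These CD4+ T cells bear a transgenic receptor for a BALB/c alloantigen (TEa). Congenically marked naive wild-type TEa cells were transferred into C57BL/6 mice, these mice received BALB/c hearts, and the transferred cells were sorted out of grafts and spleens. Another library held Ldha-/- TEa cells from the spleen, whose genes were not analysed here. Each of the 3 groups had 1 library, and the labels give neither the number of mice nor the age or sex, and speak both of sorted cells and of a suspension of nuclei. The members were 121 cells of 2415 graft cells that passed the same filter, and of 23450 barcodes with at least 1000 UMIs and 500 genes in the 3 libraries. A UMI (unique molecular identifier) stands for 1 captured transcript.

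The filter kept T cells that were neither cycling nor positive for the inducible heat shock genes Hspa1a and Hspa1b. Of 4124 graft barcodes, 50 had over 10% mitochondrial UMIs, 26 had fewer than 6 UMIs of Cd3d, Cd3e, Cd3g, Trac, Trbc1 and Trbc2, and 58 had over 1 UMI of the myeloid gene Lyz2. A further 1276 had over 1 UMI of 10 cycling genes, and 299 had an Hspa1a or Hspa1b UMI. Among the 2415 cells left, 1885 had no Ifng UMI and served as the comparison, 409 had 1 or 2, and 121 had 3 or more. The members are thus chosen by Ifng itself, so their Ifng level is a description. Both classes come from 1 library, so no difference has a replicate check, no p-value is given, and intervals cover counting error only.

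Interferon gamma is the signature cytokine of type 1 helper (Th1) and cytotoxic T cells, and it acts on macrophages, endothelium and other graft cells. In T cells its gene is transcribed in bursts after the T cell receptor engages antigen, or after IL-12 and IL-18, with the factors T-bet, NFAT, AP-1 and NF-kB involved. Receptor engagement also induces immediate early genes, among them the Nr4a orphan nuclear receptors, Egr factors and AP-1 subunits. In transplantation, Th1 cells are known as drivers of acute rejection, while interferon gamma also has regulatory roles.

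The promoters of Ifng and of Gadd45b, Nr4a1 and Tnf, which had higher levels in the members, are shown because the members are defined by the first and described by the others. Each sequence runs from 250 bases before to 50 bases after the RefSeq start on GRCm38.p6, read 5′ to 3′ on the gene's strand. Capitals mark a match on either strand to the NFAT core GGAAA, the CRE core TGACG, the AP-1 site TGANTCA or the T-box core TCACACC. The Ifng window lies at chr10:118440796-118441095 (plus strand), that of Gadd45b at chr10:80929841-80930140 (plus strand), that of Nr4a1 at chr15:101266596-101266895 (plus strand) and that of Tnf at chr17:35201958-35202257 (minus strand).
Ifng: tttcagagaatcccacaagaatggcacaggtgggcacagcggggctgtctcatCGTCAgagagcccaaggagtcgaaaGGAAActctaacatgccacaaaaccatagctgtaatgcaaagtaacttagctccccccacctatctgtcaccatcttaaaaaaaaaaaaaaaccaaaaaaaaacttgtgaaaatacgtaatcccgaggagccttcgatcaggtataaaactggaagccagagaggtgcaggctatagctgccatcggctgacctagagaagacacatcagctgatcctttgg
Gadd45b: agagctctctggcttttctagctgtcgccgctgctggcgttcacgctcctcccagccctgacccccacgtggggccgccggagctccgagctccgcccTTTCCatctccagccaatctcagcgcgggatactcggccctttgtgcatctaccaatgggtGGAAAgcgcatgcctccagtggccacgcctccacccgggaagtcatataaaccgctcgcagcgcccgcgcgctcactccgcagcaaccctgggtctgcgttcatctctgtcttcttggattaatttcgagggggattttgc
Nr4a1: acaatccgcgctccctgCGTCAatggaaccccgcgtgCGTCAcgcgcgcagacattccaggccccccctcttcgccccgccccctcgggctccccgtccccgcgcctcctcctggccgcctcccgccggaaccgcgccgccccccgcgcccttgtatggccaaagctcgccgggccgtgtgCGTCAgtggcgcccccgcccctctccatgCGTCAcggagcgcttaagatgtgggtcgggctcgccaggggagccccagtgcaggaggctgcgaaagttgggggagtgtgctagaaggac
Tnf: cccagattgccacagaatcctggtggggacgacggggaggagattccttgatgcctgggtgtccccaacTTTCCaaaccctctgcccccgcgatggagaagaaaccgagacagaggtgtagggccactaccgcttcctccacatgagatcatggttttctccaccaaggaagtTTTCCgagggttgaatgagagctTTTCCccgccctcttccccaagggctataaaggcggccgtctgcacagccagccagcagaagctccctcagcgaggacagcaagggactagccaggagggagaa

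The Ifng window held 1 NFAT core and 1 CRE core, and neither of the other motifs. The Nr4a1 window held 4 CRE cores and no NFAT core, the Gadd45b window 2 NFAT cores, and the Tnf window 3 NFAT cores. Of the 19 cytokine, chemokine and TNF family genes looked up, 14 had a promoter in the table, and 12 of these held an NFAT core, 5 a CRE core, 2 an AP-1 site and 1 a T-box core. Over 32851 mouse promoters of the same length, 61.3% held the NFAT core, 20.8% the CRE core, 7.81% the AP-1 site and 3.98% the T-box core. A match describes letters only.

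Ifng (ENSMUSG00000055170, chr10:118441046-118445892, plus strand) was unevenly spread over the graft cells. The members made up 5.01% of the filtered graft cells (95% exact binomial interval 4.17 to 5.96%) and held 951 of 1452 Ifng UMIs, or 65.5%. Their median was 5 Ifng UMIs and their maximum 79. In the spleen library, 47 of 6004 cells of the same filter had at least 3 Ifng UMIs (0.783%, 0.576 to 1.04%). Graft cells with any Ifng UMI came to 21.9%, and spleen cells to 5.40%. Each tissue is 1 library, so the 2 cannot be told apart.

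**Figure D1:**
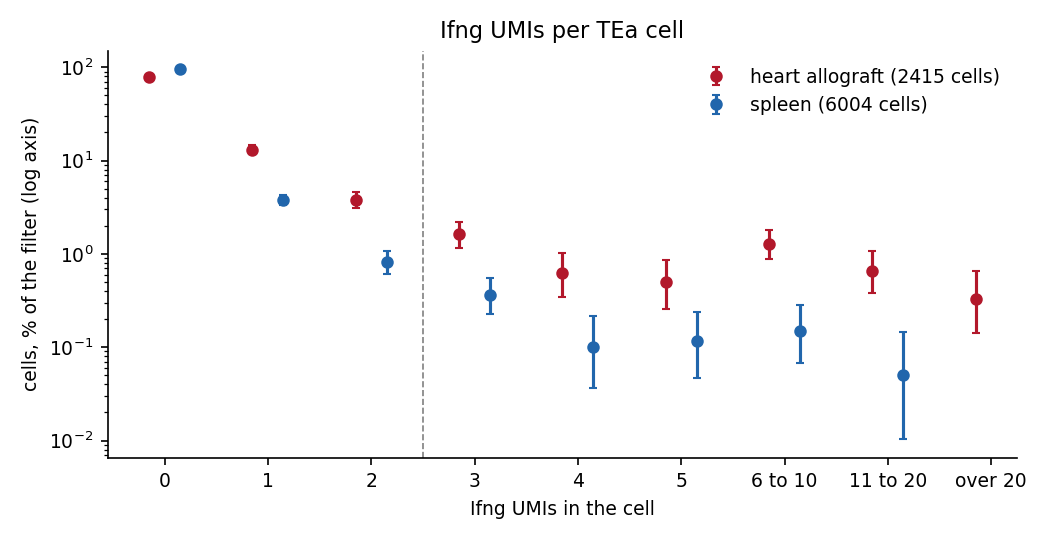
Share of filtered cells (log axis, in percent) by the number of Ifng UMIs in the cell, for the heart allograft (red, 2415 cells) and the spleen (blue, 6004 cells), with 95% exact binomial intervals. The dashed line marks the minimum of 3 UMIs. Graft cells lie above spleen cells from 1 UMI upwards, and 8 graft cells and no spleen cell had over 20.

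Just inside the threshold, 39 cells had 3 Ifng UMIs, which is 336 CPM (counts scaled to a total of 1e+06) over their summed counts. Just outside it, 92 cells had 2, or 242 CPM, and 317 cells had 1, or 121 CPM. Free RNA in the heart library, read in barcodes of 1 to 100 UMIs, held Ifng at 120 CPM (103 to 138), against 19.3 CPM (14.5 to 25.1) in the spleen library. The CPM of a class fixed by its number of Ifng UMIs follows from that number and the depth, so it says nothing about background. Of 14 myeloid barcodes in the heart library, 0 had an Ifng UMI, which allows up to 23.2%, at a median of 15484.5 UMIs. The part of free RNA in the class with 1 or 2 Ifng UMIs was not tested.

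Depth differed little between the classes. The members had a median of 8222 UMIs and 2033 genes, against 7311 UMIs and 2000 genes in cells without Ifng, with mitochondrial shares of 2.66% and 3.04%. Their summed counts were 1037927 and 14675616 UMIs, so that a count of 0 allows up to 2.89 CPM in the members and 0.204 CPM in cells without Ifng. Ribosomal protein genes took 29.1% of UMIs in the members and 32.01% in cells without Ifng. No member had over 3 times the median UMI count. Between the heart and spleen libraries 6 barcodes were shared, and 13 between the heart and Ldha-/- libraries, among them 1 member.

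Receptor segments and marker genes described the members as TEa CD4+ cells. Trbv19, the segment of the TEa beta chain, gave 88.5% of Trbv UMIs in the members (46 of 52, 76.6 to 95.6%) and 87.5% in cells without Ifng (84.6 to 90.1%). The Trav14 family, of the alpha chain, gave 73.7% of Trav UMIs in the members (73 of 99, 63.9 to 82.1%). In cells without Ifng it gave 79.4% (77.1 to 81.5%), and the rest came from other Trav segments. The CD4 markers, Cd4 and Cd40lg, summed to 271 CPM in the members and 194 CPM in cells without Ifng, of which Cd4 gave 180 and 166 CPM. CD8 markers summed to 7.71 and 9.13 CPM, natural killer cell markers to 0.963 and 2.38 CPM, and B cell markers to 28.9 and 44.8 CPM, in the same order. The monocyte and macrophage list summed to 368 CPM in the members and 361 CPM in cells without Ifng, mostly from Ctss, and 6 of its 12 genes, C1qa, C1qb and Csf1r among them, were at 0 in the members. Cardiomyocyte, fibroblast and erythroid markers were at 0 in the members. The gamma delta T cell list stood at 410 CPM in the members and 422 CPM in cells without Ifng, nearly all from Trdc.

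Of 2451 genes at or above 50 CPM in one of the classes, 93 were at least 1.5-fold higher in the members (3.79%) and 56 at least 1.5-fold lower (2.28%). With mitochondrial, ribosomal protein, Malat1 and Ifng counts left out of the totals, 93 were higher and 149 lower. The median log2 ratio of the 2451 genes was 0.02. Ratios are log2 of CPM plus 1 in the members over CPM plus 1 in cells without Ifng, and understate differences of low genes. The 12 highest ratios were those of Ccl1, Ccl4, Nr4a1, Gadd45b, Gem, AA467197, Cdkn1a, Cd40lg, Hk2, Pim3, Nfkbid and Csrnp1, and the 4 lowest those of Ccr7, Tcf7, Klf2 and S1pr1. Since a gene could reach 50 CPM, or the 10 CPM asked for list medians, through 1 class alone, the list counts and medians below are descriptions. Of 53 named genes called in either direction, 20 were within 1.5-fold with cycling cells kept, 13 with 2 Ifng UMIs as the minimum and 11 with Hspa1a- or Hspa1b-positive cells kept.

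Immediate early genes of receptor signalling were higher in the members. Of the 20 listed genes at 50 CPM, 14 were at least 1.5-fold higher in the members and 0 were lower, and the median over 26 members of the list with at least 10 CPM was 0.88, against -0.0012 over 6275 genes. Of the 14, 3 reached 50 CPM through the members alone. With cycling cells kept the median was 0.39. Nr4a1, an orphan nuclear receptor used as a readout of T cell receptor signalling, stood at 171 CPM in the members (147 to 199) and 39.0 CPM in cells without Ifng (35.9 to 42.4), a log2 ratio of 2.11. At least 1 Nr4a1 UMI was found in 69 of 121 members, and after thinning each cell to 1000 UMIs in 16.5% of members and 4.14% of cells without Ifng. Its relatives Nr4a2 and Nr4a3 stood at 154 and 159 CPM in the members and at 76.2 and 86.4 CPM in cells without Ifng. Their log2 ratios were 1.01 and 0.87.

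The AP-1 subunit gene Junb was the most abundant of the group, at 2971 CPM in the members and 1402 CPM in cells without Ifng, a log2 ratio of 1.08. Per cell, the members had a median of 26.9 Junb UMIs per 10000 (quartiles 9.84 and 49.99), against 10.8 in cells without Ifng (5.51 and 20.2), so the 2 classes overlapped widely. Fosb and Fos, its partners, were under 50 CPM, at 49.1 and 45.3 CPM in the members and 11.5 and 12.8 CPM in cells without Ifng. Egr1, a zinc finger factor, stood at 71.3 and 30.8 CPM, and the activation marker Cd69 at 238 and 112 CPM, in the same order. The ratio of Egr1 was 0.52 with cycling cells kept. The other 8 genes called higher were Batf, Ier2, Ier5, Dusp1, Dusp2, Rgs2, Rgs16 and Zfp36, with Ier5 at 318 CPM in the members and 158 CPM in cells without Ifng. Of the genes not called, Jun was at 25.05 CPM in the members and 24.5 CPM in cells without Ifng, Crem, a cyclic AMP responsive repressor, at 632 and 642 CPM, and Nfatc1 at 63.6 and 61.4 CPM.

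Outside that list, Gadd45b (chr10:80930073-80932204, plus strand), a stress sensor known to support p38 signalling and Ifng expression in Th1 cells, stood at 705 CPM in the members (655 to 758) and 167 CPM in cells without Ifng (160 to 174), a log2 ratio of 2.07. It was found in 101 of 121 members. With cells thinned, 44.6% of members (35.6 to 53.9%) and 13.1% of cells without Ifng (11.6 to 14.7%) had a Gadd45b UMI. Cdkn1a, the cell cycle inhibitor p21, stood at 152 CPM in the members and 43.4 CPM in cells without Ifng. Within the list, Rgs16, a regulator of G protein signalling, stood at 428 and 165 CPM, in the same order. Both Nr4a1 and Gadd45b were found in 64 members.

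**Figure D2:**
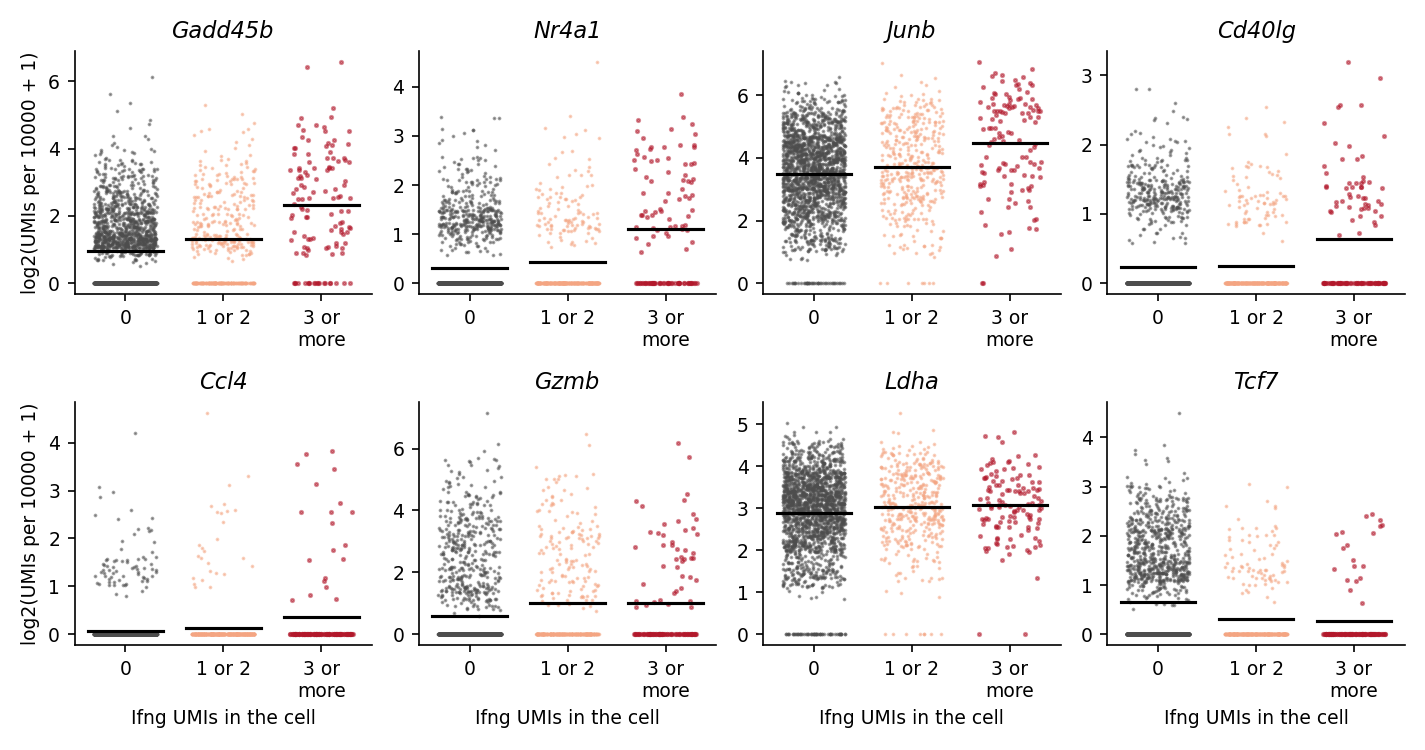
Level of 8 genes in each graft cell, as log2 of UMIs per 10000 plus 1, for cells with 0 (grey, 1885), 1 or 2 (orange, 409) and 3 or more (red, 121) Ifng UMIs. Black lines are means over cells. The mean lines for Gadd45b, Nr4a1, Junb and Cd40lg are highest in the members, that for Tcf7 is lowest there, and Ldha is nearly level.

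Some feedback inhibitors of NF-kB were higher, while others and most NF-kB subunits were within 1.5-fold. Of 12 listed genes at 50 CPM, 5 were at least 1.5-fold higher and 0 lower. Of the 5, 2 reached 50 CPM through the members alone, Nfkbid and Nfkbiz, so they could not be called lower. With cycling cells kept, the ratios of Nfkbia, Rel and Traf1 were 0.49, 0.40 and 0.15. The inhibitors Nfkbia, Nfkbid and Nfkbiz stood at 707, 114 and 59.7 CPM in the members, against 335, 38.2 and 20.7 CPM in cells without Ifng. Rel, the subunit c-Rel, was at 193 and 105 CPM, and the adaptor gene Traf1 at 314 and 205 CPM, in the same order. Rela was at 33.7 CPM in the members and 35.7 CPM in cells without Ifng, and Tnfaip3, the inhibitor A20, at 318 and 277 CPM. The list's median, 0.20 over 17 genes, lay below that of the immediate early genes.

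Among secreted products, the chemokines and 2 TNF family ligands were higher. Of the listed genes at 50 CPM, 3 of 3 chemokines, 2 of 3 TNF family ligands and 0 of 4 effector cytokines were higher, and 1 cytokine was lower. The genes Ccl1, Ccl4 and Cd40lg reached 50 CPM in the members alone, so that these counts had to include them. The medians at 10 CPM were 2.35 over 4 chemokines, 0.62 over 6 ligands and 0.38 over 9 cytokines. Ccl1 and Ccl4, at 1.09 and 8.11 CPM in cells without Ifng, also reached 10 CPM through the members alone, as did Tnf and Il13. Such genes could only add high ratios, so these medians are descriptions. Ccl4, an inflammatory chemokine, had 66.5 CPM in the members (51.7 to 84.1) and 8.11 CPM in cells without Ifng (6.72 to 9.70), a log2 ratio of 2.89, and was found in 20 members. Ccl5, another inflammatory chemokine, had 1159 CPM in the members, of which 1 cell gave 239 of 1203 UMIs, and 631 CPM in cells without Ifng; its ratio of 0.88 was 0.56, under 1.5-fold, without that cell, and 0.15 with cycling cells kept. Ccl1, a CCR8 ligand, had the highest ratio of all, 4.74. It rested on 4 members, and 1 cell held 51 of the 57 UMIs; without that cell the ratio was 1.70. Xcl1 likewise drew 15 of 31 UMIs from 1 cell, and its ratio was 1.82 with and 0.90 without it.

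Cd40lg (chrX:57212143-57224042, plus strand), the ligand through which helper cells activate dendritic cells, B cells and macrophages, stood at 90.6 CPM in the members (73.2 to 111) and 27.7 CPM in cells without Ifng (25.1 to 30.6), a log2 ratio of 1.67. Tnfsf11, the ligand RANKL, stood at 189 and 73.4 CPM, in the same order. The death ligand gene Fasl was at 71.3 CPM in the members and 50.8 CPM in cells without Ifng, under 1.5-fold. Of the cytokines, Tnf had 30.8 and 8.11 CPM and was found in 21 members, Il2 had 7.71 and 5.52 CPM and was found in 8, and no member had both. Among cells without Ifng, 89 had Tnf, 77 had Il2 and 2 had both. With so few cells, the lack of members with both says little. Il10, an anti-inflammatory cytokine, was at 24.1 CPM in the members and 25.1 CPM in cells without Ifng. Il16, a ligand of CD4, was at 33.7 CPM in the members and 62.6 CPM in cells without Ifng.

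The type 2 and type 17 cytokine genes Il13 and Il17a rested on few cells. Il13 had 24 UMIs over 8 members, 11 of them in 1 cell, against 4 UMIs in 4 of 1885 cells without Ifng, and was at 23.1 and 0.273 CPM. Il17a had 22 UMIs over 2 members, of which 1 cell gave 17, and 101 UMIs over 4 cells without Ifng. Its log2 ratio of 1.49 turned to -0.44 without that member.

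Most listed genes of the Th1 programme had ratios above 0, but few at 50 CPM were 1.5-fold higher. Of 13 listed genes at 50 CPM, 2 were higher and 0 lower, with a median of 0.16. Of 20 genes at 10 CPM, 17 had a ratio above 0, against 3129 of 6275 over all genes. Their median was 0.46, or 0.08 with cycling cells kept. Bhlhe40, a repressor of Il10 needed for Th1 function, stood at 312 CPM in the members and 148 CPM in cells without Ifng. Id2, an inhibitor of E proteins, stood at 238 and 102 CPM, in the same order, with 52 of 247 UMIs from 1 member. Tbx21, which encodes T-bet, was at 34.7 CPM in the members (30 cells) and 20.2 CPM in cells without Ifng, and Prdm1, which encodes Blimp-1, at 31.8 and 13.6 CPM. Il18rap, a subunit of the IL-18 receptor, was at 37.6 and 19.1 CPM, in the same order. The chemokine receptor gene Cxcr6 was at 483 CPM in the members and 372 CPM in cells without Ifng, under 1.5-fold.

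The response genes of interferon gamma were near level. Of 15 listed genes at 50 CPM, 1 was higher and 2 lower, and the median of 24 genes was -0.02. Irf1, a transcription factor gene, was at 104 CPM in the members and 80.7 CPM in cells without Ifng, and the GTPase gene Igtp at 170 and 171 CPM, in the same order. Cd274, which encodes the inhibitory ligand PD-L1, was at 59.7 CPM in the members and 32.4 CPM in cells without Ifng, and Ifi47, a GTPase gene, at 136 and 215 CPM. The type I interferon list had a median of -0.09, with 1 gene higher (Isg15, 239 CPM in the members and 152 CPM in cells without Ifng) and 1 lower of 10.

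Granzyme B was found in part of the members. Gzmb was at 373 CPM in the members and 192 CPM in cells without Ifng, a log2 ratio of 0.95, or 0.66 without the member that held 71 of 387 UMIs. It was found in 46 members. After thinning it was found in 19.0% of members and 9.496% of cells without Ifng. Gzmk, another granzyme, was found in 41 members, and at 91.5 CPM in the members and 111 CPM in cells without Ifng. Nkg7, a granule membrane gene, was at 835 and 553 CPM, and Ctla2a, a cysteine protease inhibitor, at 2074 and 1906 CPM, in the same order. Prf1, which encodes perforin, had 0 UMIs in the members, which allows up to 2.89 CPM. Of 7 listed cytotoxic genes at 50 CPM, 3 were higher and 0 lower, and the median over 12 was 0.26. Nkg7, at a ratio of 0.59, and Klrd1, at 0.62, were under 1.5-fold without the member with the most UMIs, at 0.53 and 0.27.

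Of the listed glycolysis genes at 50 CPM, 1 was called higher and 0 lower. Hk2, which encodes the hexokinase at the entry to glycolysis, stood at 76.1 CPM in the members (60.3 to 94.9) and 23.4 CPM in cells without Ifng, a log2 ratio of 1.66. It reached 50 CPM through the members alone, so it could not be called lower. Slc2a3, the glucose transporter GLUT3, was at 24.1 and 9.27 CPM, in the same order. The other 10 listed genes at 50 CPM were within 1.5-fold. Ldha, the subunit deleted in the library not analysed here, was at 909 CPM in the members and 813 CPM in cells without Ifng, a log2 ratio of 0.16, and Gapdh at 2969 and 2646 CPM. Of 19 oxidative phosphorylation genes at 50 CPM, 0 were called either way, with a median of 0.05.

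Genes of naive, stem-like and recirculating T cells were lower. Of 9 listed genes at 50 CPM, 8 were at least 1.5-fold lower in the members and 0 higher, 5 of them at 50 CPM in cells without Ifng alone, and the median over 13 genes was -0.72. Tcf7 (chr11:52252371-52283014, minus strand), which encodes the stem-like regulator TCF-1, stood at 33.7 CPM in the members (23.5 to 46.9) and 99.8 CPM in cells without Ifng (94.8 to 105), a log2 ratio of -1.54. It was found in 19 members, and in 4 of these together with Gzmb. Ccr7, the receptor for lymph node entry, was at 33.7 CPM in the members, 17 of 35 UMIs in 1 cell, and 102 CPM in cells without Ifng. Klf2 and S1pr1, a factor and its target receptor in egress from tissue, were at 26.0 and 46.2 CPM in the members and 61.1 and 99.4 CPM in cells without Ifng. The ratio of Klf2, -1.20, was -0.32 with Hspa1a- or Hspa1b-positive cells kept. Il7r, the IL-7 receptor, was at 155 CPM in the members and 256 CPM in cells without Ifng.

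Among the other lowest genes, Got1, an aspartate aminotransferase, was at 99.2 CPM in the members and 201 CPM in cells without Ifng. Sh2d1a, the adaptor SAP, was at 168 and 319 CPM, Ramp3, a receptor activity-modifying protein, at 55.9 and 106 CPM, and Ninj1, a membrane rupture protein, at 28.9 and 59.8 CPM, in the same order. The lower genes Grap2, Il16, Lamp1 and Pja1 completed the 12 lowest, with ratios of -0.88 for Grap2, -0.87 for Il16, -0.86 for Lamp1 and -0.80 for Pja1. The ratio of Pja1 was 0.30 with cells thinned. Among the higher ones, Gem, a small GTPase, was at 66.5 and 17.6 CPM, and AA467197 at 233 and 66.2 CPM. Pim3, a kinase, was at 73.2 and 22.7 CPM, and Csrnp1, a nuclear protein, at 87.7 and 30.5 CPM. Of 13 listed S100, galectin and annexin genes at 50 CPM, 4 were higher and 0 lower, Lgals1 at 1891 and 1118 CPM among them. With cycling cells kept, the ratios of Lgals3 and S100a4 were 0.11 and 0.20. With Hspa1a- or Hspa1b-positive cells kept, those of Lgals1 and Anxa2 were 0.56 and 0.55, under 1.5-fold. Heat shock genes that the rule did not use were called in neither direction in any of 12 cases, although their median was 0.29.

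The remaining lists had medians between -0.38 and 0.35. The lowest was that of the helper follicular genes, with 3 of 7 genes at 10 CPM above 0. The highest was that of the stress responses of the endoplasmic reticulum, with 12 of 14 above 0. Of 2 helper follicular genes at 50 CPM, Sh2d1a was lower. Of 8 mRNA decay factors, Zfp36 and Zfp36l1 were higher, at 74.2 and 95.4 CPM in the members and 38.5 and 54.9 CPM in cells without Ifng. Of 10 genes of IL-2 and STAT5 feedback, Cish and Pim1 were higher, at 128 and 610 CPM in the members and 63.0 and 392 CPM in cells without Ifng. With cycling cells kept, the ratios of Zfp36, Zfp36l1, Pim1, Isg15 and Cd274 were 0.30, 0.24, 0.28, 0.21 and 0.43. Cd274 was the 1 higher gene of 5 inhibitory receptors. Of 12 proliferation genes outside the rule, Cdkn1a and Stmn1 were higher and Cdkn1b lower. The ratio of Cdkn1b, -0.59, was -0.54 with cells without Ifng weighted to the depth of the members, and -0.29 with cells thinned. That of Stmn1, 0.79, was 0.34 with 2 Ifng UMIs as the minimum. Xiap was the 1 lower gene of 11 survival and death genes, and Ldlrad4 the 1 lower of 8 in the TGF-beta pathway. The ratios of Xiap and Ldlrad4, -0.62 and -0.70, were -0.23 and -0.57 with cycling cells kept. These changed ratios were all under 1.5-fold. No gene was called among 18 of the receptor complex, 14 of antigen processing, 13 of tissue residency and homing, 10 of Myc and ribosome biogenesis, 10 of the stress responses of the endoplasmic reticulum, 9 costimulatory receptors, 6 hypoxia targets, 6 other helper regulators and 6 regulatory T cell genes. Foxp3 had 5 UMIs in 2 members, or 4.82 CPM, against 2.86 CPM in cells without Ifng.

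Values in cells with 1 or 2 Ifng UMIs stood between the other classes for many of these genes. For Gadd45b the levels were 167, 254 and 705 CPM in cells with 0, 1 or 2, and 3 or more Ifng UMIs, for Nr4a1 39.0, 56.9 and 171 CPM, and for Cd40lg 27.7, 29.9 and 90.6 CPM. Tcf7 stood at 99.8, 41.2 and 33.7 CPM, so that most of its difference was already present at 1 or 2 Ifng UMIs. Gzmb stood at 192, 358 and 373 CPM. All 12 genes with the highest ratios had their middle value between the outer classes, as had 9 of the 12 lowest. These genes were picked for the distance between the outer classes, and the share over all genes was not counted, so the 2 counts are descriptions. The middle value of Cd40lg was near that of cells without Ifng. Both contrasts share the cells without Ifng. At 1.5-fold, 12 of 2389 genes (0.502%) were higher and 7 (0.293%) lower with 1 or 2 Ifng UMIs than without.

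**Figure D3:**
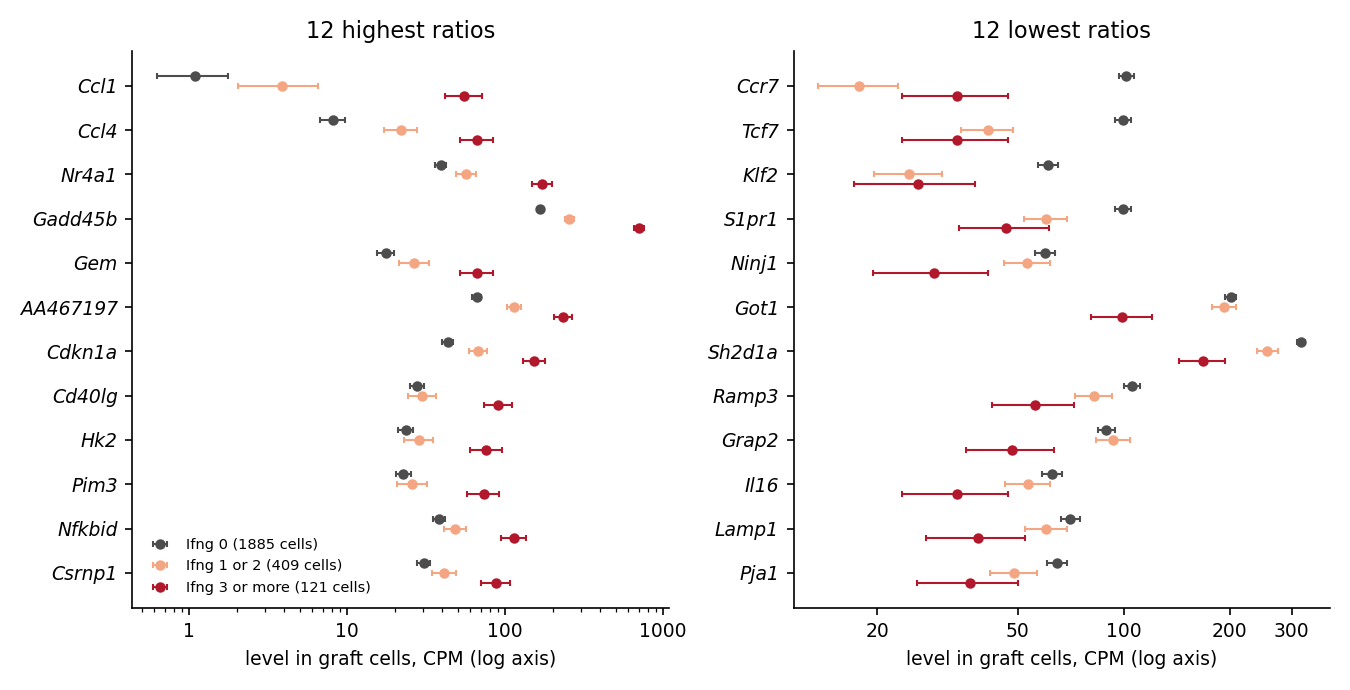
Level in CPM (log axis) of the 24 genes at the 2 ends of the ratios, in graft cells with 0 (grey), 1 or 2 (orange) and 3 or more (red) Ifng UMIs. Bars are 95% Poisson intervals of the summed counts. The middle class lies between the others for each of the 12 highest, and its interval meets that of the members for Tcf7 and Klf2, while for Ccr7 it lies below both other classes.

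The members also differed among themselves with the amount of Ifng. The 55 members with at least 6 Ifng UMIs had Gadd45b at 1164 CPM (1066 to 1268), against 354 CPM (307 to 405) in the 66 members with 3 to 5. Nr4a1 stood at 267 and 98.7 CPM, Ccl4 at 116 and 28.9 CPM, Csrnp1 at 151 and 39.1 CPM, Egr1 at 116 and 37.4 CPM and Gzmb at 553 and 235 CPM, in the same order. The Gzmb level at 3 to 5 lay below that at 1 or 2 Ifng UMIs given above, and 1 member held 71 Gzmb UMIs. Csrnp1 and Egr1, at 41.2 and 38.8 CPM with 1 or 2 Ifng UMIs, did not rise from there to 3 to 5 either. Another set did not follow Ifng within the members. Cd40lg was at 88.9 CPM (63.5 to 121) with at least 6 Ifng UMIs and 91.9 CPM (69.0 to 120) with 3 to 5, AA467197 at 247 and 223 CPM, Bhlhe40 at 340 and 291 CPM, and S100a4 at 2101 and 2697 CPM. The split at 6 UMIs was chosen with the data in view.

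**Figure D4:**
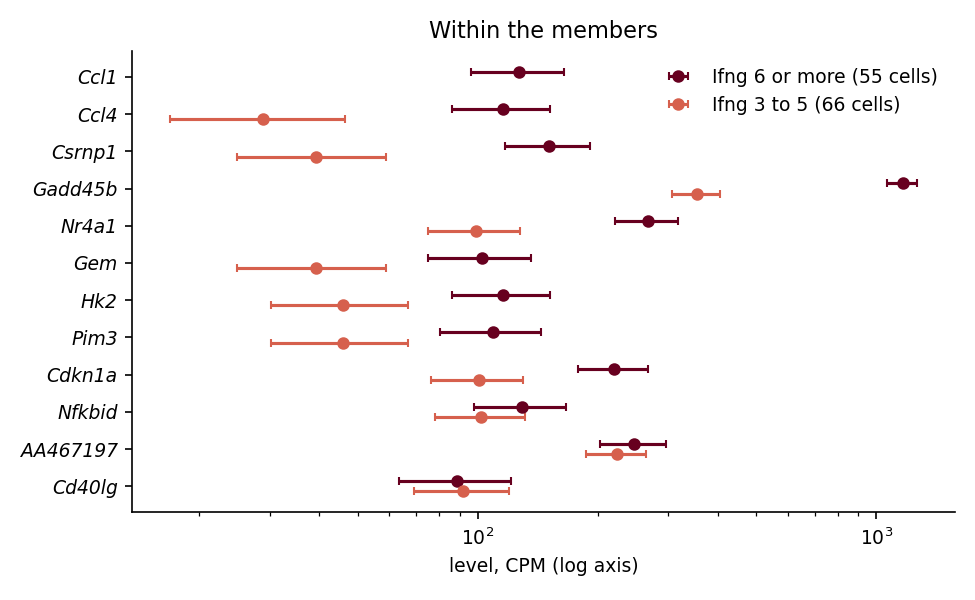
Level in CPM (log axis) of the 12 genes with the highest ratios in members with at least 6 (dark red, 55 cells) and with 3 to 5 (light red, 66 cells) Ifng UMIs, with 95% Poisson intervals. Intervals of Gadd45b, Nr4a1, Ccl4 and Csrnp1 do not meet, while those of Cd40lg, AA467197 and Nfkbid overlap. Ccl1 has no point at 3 to 5 UMIs because its count there was 0.

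The 8 genes whose level over 2415 thinned graft cells was most like that of Ifng were Ccl1, Junb, Nr4a1, Ccl4, Cdkn1a, Gadd45b, Phlda1 and Plk3. Their Spearman coefficients, 0.09 to 0.14 over cells of 1 library, are too weak to read.

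The spleen library gave the same contrast in cells that the rule did not use, with 47 cells of at least 3 Ifng UMIs and 5680 without Ifng. There 206 of 2572 genes (8.01%) were at least 1.5-fold higher and 110 (4.28%) lower, and with fewer cells the counting error was larger. In spleen too a gene could reach 50 CPM, or 10 CPM for the medians, through 1 class alone. The spleen counts and medians here and below are therefore descriptions. Gadd45b and Ccl4, for example, did so through the cells with at least 3 Ifng UMIs, and could not be called lower. Of the 93 genes higher in the graft members, 47 reached 50 CPM in spleen, and 29 of these (61.7%) were higher there and 0 lower. Of the 56 lower genes, 40 reached it, and 13 (32.5%) were lower there and 0 higher. The 29 shared genes make up 31.2% of the graft list and 14.1% of the spleen list, and the 13 lower ones 23.2% and 11.8%. Gadd45b, Nr4a1, Junb, Egr1, Cd69, Nfkbia, Nfkbid, Id2 and Gzmb were among the higher genes in both, and Tcf7, Ccr7, Lef1, Satb1, Slamf6 and Il7r among the lower.

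The immediate early genes had a median log2 ratio of 1.06 in spleen, with 11 of 14 higher and 0 lower. The naive and stem-like genes had a median of -0.72, with 10 of 14 lower and 0 higher. Levels differed between the tissues. Gadd45b was at 705 CPM in the graft members and 69.6 CPM (47.0 to 99.4) in the spleen cells with at least 3 Ifng UMIs, against 167 and 11.9 CPM in the graft and spleen cells without Ifng. Rgs16 was at 428 CPM in the graft members and 9.28 CPM in the spleen cells, and Bhlhe40 at 312 and 16.2 CPM. Klf2 was at 26.0 CPM in the graft members and 759 CPM in the spleen cells, and Tcf7 at 33.7 and 264 CPM.

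Gzmb, Ccl5 and Nkg7 had higher ratios in spleen than in graft, while Ccl1 and Xcl1 had 0 UMIs in the 47 spleen cells with at least 3 Ifng UMIs. Gzmb was at 371 CPM in spleen cells with at least 3 Ifng UMIs and 16.2 CPM in spleen cells without, a log2 ratio of 4.43 against 0.95 in the graft. Ccl5 was at 3990 and 189 CPM in the same spleen classes, a ratio of 4.39 against 0.88, and Nkg7 at 731 and 115 CPM. Ccl5 was found in 19 of the 47 spleen cells, and 1 of them gave 454 of 1720 UMIs. Without that cell its level was 2937 CPM. In spleen the cytotoxic genes had a median of 1.99, with 6 of 6 genes at 50 CPM higher. Of these, Gzmb reached 50 CPM only in the cells with at least 3 Ifng UMIs, so it could not be called lower. Ccl4 reached 332 CPM in these spleen cells, but 133 of its 143 UMIs came from 1 cell, and it was at 23.2 CPM without that cell. Gzma, another of the cytotoxic genes counted, likewise drew 22 of 23 UMIs from 1 spleen cell, and reached 50 CPM only through it. Cd40lg, at 55.7 and 47.8 CPM in the spleen cells with at least 3 and without Ifng UMIs, had a log2 ratio of 0.22 there against 1.67 in the graft. The difference between the tissues was not tested.

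**Figure D5:**
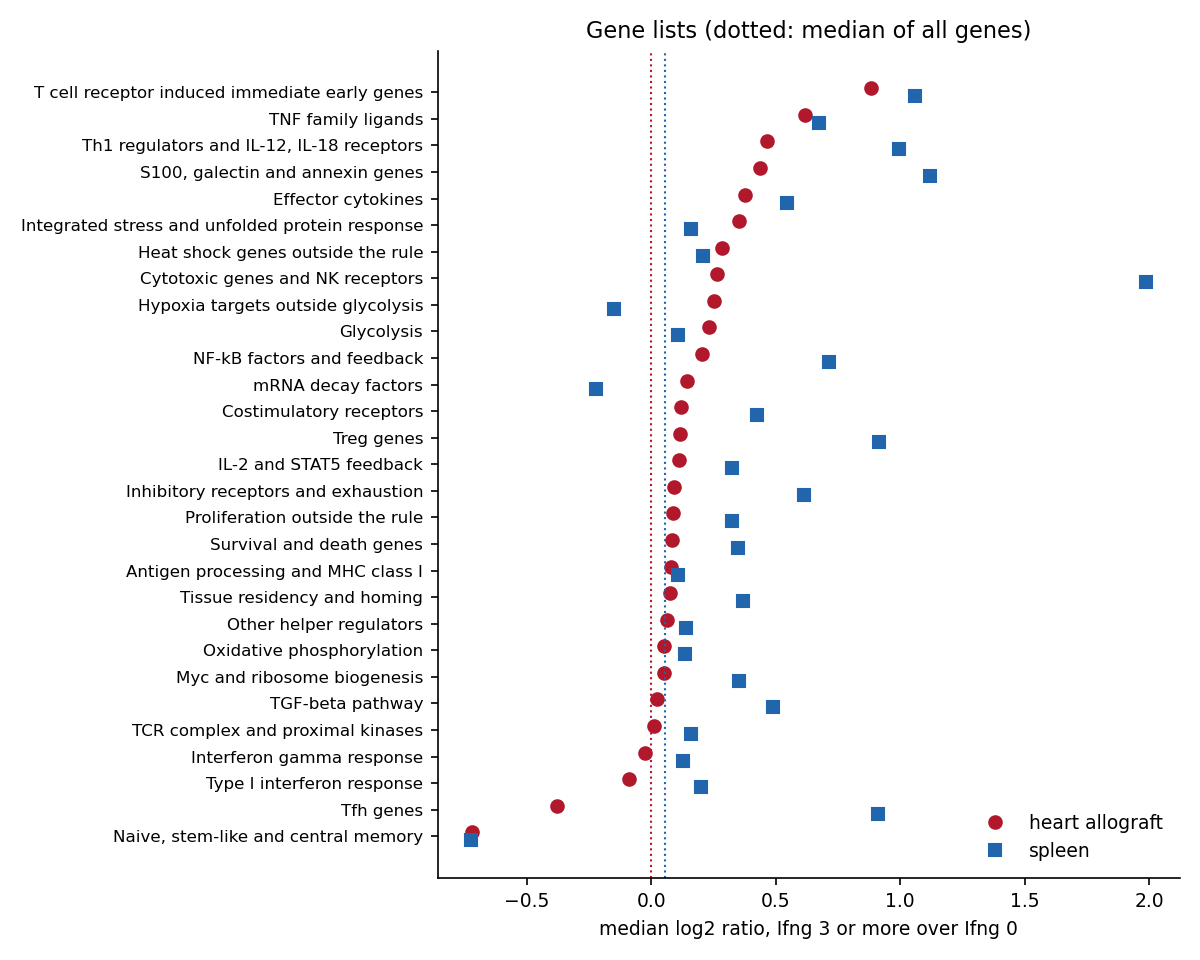
Median log2 ratio of each gene list, cells with at least 3 Ifng UMIs over cells without, in the heart allograft (red circles) and the spleen (blue squares), over members with at least 10 CPM; dotted lines are the medians of all genes. Immediate early genes stand at 0.88 and 1.06, naive and stem-like genes at -0.72 in both, and cytotoxic genes at 0.26 in graft and 1.99 in spleen; the chemokine list, of 4 and 3 genes, is left out.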

How the data were processed

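Droplet-based 3' libraries of sorted TEa cells were sequenced, 1 library per group. The authors deposited raw counts, as UMIs of each gene in each barcode, which were not normalized. Per the file headers, the wild-type matrices come from Cell Ranger 3.0.2 and the Ldha-/- matrix from Cell Ranger 7.0.1. Seurat 4.0.0, mm10 and Cell Ranger 7.0.0 are named in the submitters' processing notes. The genes of the Ldha-/- matrix were not analysed here. Counts were summed per class and scaled to CPM, with exact 95% Poisson intervals, and shares of cells have exact (Clopper-Pearson) binomial intervals. A gene counted as higher or lower at 1.5-fold with at least 50 CPM in either class, with 1 CPM added, and list medians took genes with at least 10 CPM. Shares called thinned come from cells reduced to 1000 UMIs each. No test was run on single libraries, and cells were not treated as replicates. No doublet caller was run. The functions were tested on simulated data. Tools were Python 3.11.15, numpy 2.4.6, scipy 1.17.1 and pandas 2.3.3.

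The members and lists were chosen with earlier results of these data known. Genes named were the 12 highest and 12 lowest ratios, leaving out Ifng, genes of the rule, unnamed genes, haemoglobin, Xist, Tsix, Y-linked, mitochondrial and ribosomal protein genes, and segments of receptors and antibodies. Also named were 9 genes always taken and up to 6 members per list with the largest ratios. Other genes in the text were named after their values were seen, among them the unchanged members of lists. There were 30 gene lists. GENCODE M21 (GRCm38, also called mm10) gave gene positions, and RefSeq (GRCm38.p6) the promoters. Alternatives, 17 planned and 2 added after the data were seen, varied the Ifng minimum, depth, filters, scaling, pseudocount, floor and fold. Some results are not reported here.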

Additional observations from a re-analysis of the deposited data

Results flagged for a closer look

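Ifng was also found in graft cells that the filter leaves out. Of 299 non-cycling graft T cells with an Hspa1a or Hspa1b UMI, 72 had at least 3 Ifng UMIs (24.1%, 95% exact binomial interval 19.3 to 29.3%), against 5.01% in the filtered cells. Of 1106 cycling graft T cells without such a UMI, 119 had at least 3 (10.8%, 8.99 to 12.7%). These cells take no part in the main comparisons above, only in the settings that kept cycling or Hspa1a- or Hspa1b-positive cells. The shares are not thinned for depth.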

How the results depend on the processing

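In the graft, against 93 higher and 56 lower, the counts were 59 and 20 with 2 Ifng UMIs as the minimum, 153 and 151 with 5, 398 and 342 with cells thinned to 1000 UMIs, 220 and 202 at a floor of 20 CPM, 58 and 22 at 100 CPM, and 32 and 6 at 2-fold. Without mitochondrial, ribosomal protein, Malat1 and Ifng counts in the totals, 93 were higher and 149 lower, so the split turned round; this scaling moved the median of the genes at 50 CPM to -0.07 in graft, and in spleen to -0.04, against 0.10. With cycling cells kept 190 were higher, and with 10 CPM added 36 were lower. In the spleen, against 206 and 110, the counts were 396 and 228 with 5 Ifng UMIs, 909 and 451 with thinning, 577 and 389 at 20 CPM, 89 and 40 at 100 CPM, and 68 and 15 at 2-fold. Lower genes there were 46 with 2 Ifng UMIs, 379 with the changed totals, 168 at no more than 5% mitochondrial UMIs and 73 with 10 CPM added, and 415 were higher with cycling cells kept. Over the list medians, 534 stayed and 36 moved. Of 53 named genes called in the graft, Pja1 changed sign, to 0.30 with cells thinned. The number within 1.5-fold was 20 with cycling cells kept, 13 with 2 Ifng UMIs as the minimum, 11 with Hspa1a- or Hspa1b-positive cells kept and 9 with thinning, and 0 to 8 under the other settings that kept the fold. With cycling cells kept, the immediate early median was 0.39, against 0.88. Thinning leaves few UMIs per gene in 121 members. The cause of the other shifts was not tested.

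No paired analysis was possible because each group had 1 library. Leaving out a replicate was not possible for the same reason.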

Other observations

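The interferon-induced transmembrane genes, named after their values were seen, were higher in the graft members although the interferon gamma response list was level. Ifitm1 stood at 342 CPM in the members and 167 CPM in cells without Ifng, Ifitm2 at 425 and 162 CPM, and Ifitm3, which restricts virus entry, at 960 and 574 CPM. Ifitm1 came from 23 members and 189 cells without Ifng, with 51 of 355 UMIs in 1 member. In the spleen Ifitm3 was at 118 CPM in cells with at least 3 Ifng UMIs and 16.0 CPM in cells without Ifng. Within the graft members Ifitm3 did not go with the amount of Ifng, at 733 CPM with at least 6 Ifng UMIs and 1133 CPM with 3 to 5.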
